A study of Strophostyles helvola with 12 samples.

Results

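In roots of the wild legume Strophostyles helvola (sand bean), 64 of 27191 genes were lower with salt in both genotypes examined and more so in the Beach genotype. The genes were chosen on mean CPM, the count of a gene scaled to the total of its library, with 0.5 added. A gene was taken when the control level was at least 2 times the treatment level in each genotype, when the Beach ratio exceeded the Inland ratio by at least 75%, when the largest of the 4 group levels was at least 5 and their mean under 800, and when the control levels of the genotypes lay within 8-fold. The quotient of the Beach and Inland control-to-treatment ratios is called the ratio of ratios below. These values chose the genes and are given as a description, and counts of members called by a test of the same contrasts are no evidence for the choice.

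The Beach genotype came from the coast of North Carolina and the Inland genotype from Missouri. Root RNA was sequenced in 12 libraries, 3 each of Beach control (water), Beach treatment (400 mM NaCl), Inland control (water) and Inland treatment (200 mM NaCl), from seedlings labelled 10 days old. Each library pooled whole roots of separate plants taken at 3 h, 24 h and 7 d after the final concentration was reached, so a value averages over these times. Genotype and dose differed together, and their parts in any difference between Beach and Inland cannot be told apart. By the RNA integrity numbers in the paper, each Beach treatment library was below each Beach control library, while the Inland ranges overlapped. Whether RNA integrity bears on the larger Beach ratios was not tested. Library totals were 29205979 to 33300428 counts in Beach and 33790610 to 41330498 in Inland. Beach control replicate 1 stood apart from the other Beach control libraries. Its chi-square per degree of freedom was 57.8 to 59.4 against them, beside 11.6 between the others. Inland control replicate 1 stood apart to a lesser degree, with 30.05 to 34.62 against the other Inland control libraries and 15.51 between those. In the treatment groups replicate 2 had the larger values, 21.93 to 25.62 beside 13.04 in Inland and 16.1 to 22.85 beside 12.65 in Beach.

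Salt around a root first makes water harder to take up and then loads tissue with sodium and chloride. Roots commonly answer by slowing growth and lowering the transcripts of many genes while protective genes are raised. Halophytes, plants of saline ground, grow at salt levels that harm most crops, and common bean, whose genome served as the reference for these reads, is a salt-sensitive relative of sand bean. The deposited table lists common bean gene identifiers and does not pair them with names or products, so the members are described by their levels and positions in the gene order, and no function is given to any of them. For the same reason the root label was not checked against marker genes.

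Within the level limits 17110 genes were found. Of these, 1063 were at least 2-fold lower with salt in Beach and 627 in Inland, and 378 met both. The ratio of ratios of the 378 genes had a median of 1.13 and was above 1 in 240. The 64 members were 16.9% of the 378. In the mirrored direction, with an Inland ratio at least 75% above the Beach ratio, there were 11 genes. The other 303 lay between the limits. Around the limit the values ran on without a gap. The 3 members just inside had ratios of ratios of 1.756, 1.758 and 1.769, and the 3 genes just outside had 1.746, 1.742 and 1.732.

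**Figure D1:**
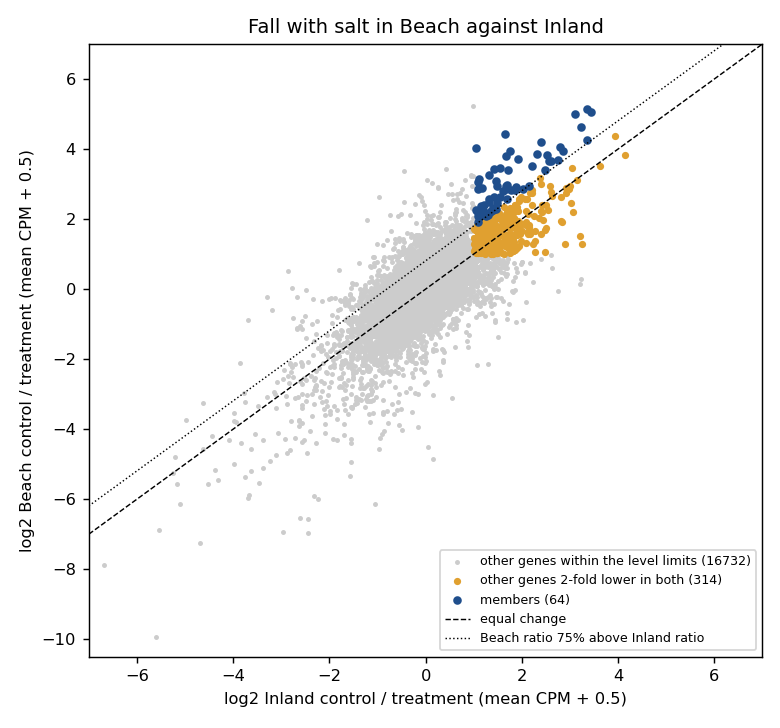
Each point is a gene within the level limits, placed by the log2 ratio of control to treatment in Inland (x axis) and in Beach (y axis), both from mean CPM + 0.5. The 64 members (blue) lie above the dotted line, which marks a Beach ratio 75% above the Inland ratio, and the 314 other genes that were 2-fold lower in both genotypes (orange) lie around the dashed line of equal change.

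In Beach the control level of the members was 3.80 to 35.5 times the treatment level, with a median of 7.47. In Inland the ratio ran from 2.05 to 10.9 with a median of 2.87. On the log2 scale the medians were 2.90 in Beach and 1.52 in Inland, beside 0.0465 and -0.0755 over the 16909 genes above 5 CPM in at least 3 libraries. The limits of the rule alone set a Beach ratio of at least 3.5, so the larger Beach values follow from the choice. The 314 other genes lower in both genotypes had a median ratio of 3.00 in Beach and 2.81 in Inland. The Inland medians of the members and of these other genes were thus close, and it was the Beach ratio by which they were set apart.

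Stated as what was left under salt, a median of 13.4% of the control level remained in Beach (range 2.82% to 26.3%) and 34.9% in Inland (range 9.19% to 48.7%). Under 10% was left for 23 members in Beach and for 3 in Inland. The Beach ratio was at least 4 in 63 members and at least 8 in 27. The Inland ratio was at least 4 in 17, at least 8 in 5 and under 3 in 34. The log2 change in Beach was 1.26 to 3.87 times the log2 change in Inland, with a median of 1.7. It was at least 2 times as large in 15 of the 64. The rule requires the larger change in Beach, so these quotients too follow in part from the choice.

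Summed over the 64 members, the level was 4108.9 to 4631 CPM in the Beach control libraries and 491 to 662 CPM in the Beach treatment libraries. In Inland it was 3985 to 4969 CPM under control and 1309 to 1383 CPM under treatment. The control libraries of both genotypes overlapped in this sum, and each treatment library of Beach held less than each treatment library of Inland. Under control the mean sum was 4333 ± 269 CPM in Beach and 4455 ± 493 in Inland, and under treatment it was 563 ± 88.9 in Beach and 1335 ± 41.4 in Inland (SD over 3 libraries). In the bulk RNA of whole roots, fewer cells of a type that expresses these genes and less RNA per cell cannot be told apart.

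**Figure D2:**
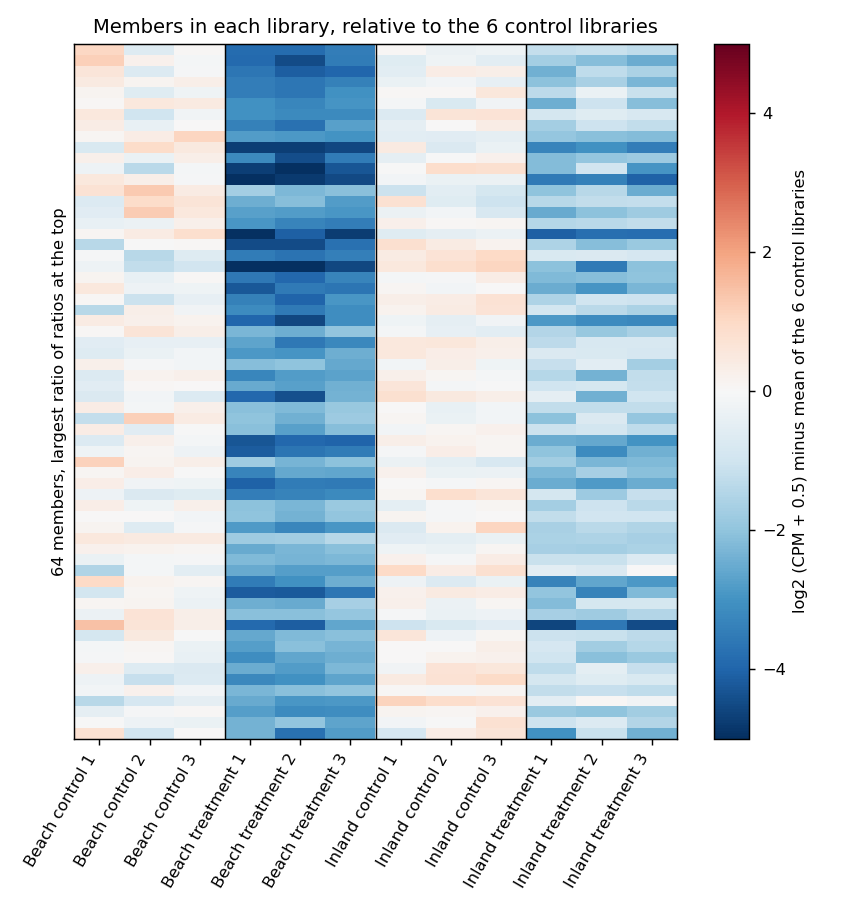
Each row is a member and each column a library. Colour gives log2 (CPM + 0.5) minus the mean of the 6 control libraries of both genotypes, with values beyond 5 drawn at the end of the scale. All 3 Beach treatment columns are darker blue than the 3 Inland treatment columns in most rows, and the 6 control columns stay near white.

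Every member had all 3 Beach treatment libraries below all 3 Beach control libraries, which held for 31.8% of the 16909 genes. In Inland the same was true of 63 members, beside 17.8% of the genes. The exception, a member under 10 CPM in each Beach control library, went from 3.58, 9.56 and 10.0 CPM to 3.00, 3.82 and 3.24 in Inland, so that 1 Inland control library lay inside the treated range. A gene was called when it changed 2-fold or more with an fdr no higher than 0.05 in edgeR's quasi-likelihood test over all genes of a genotype. By this measure 52 of the 52 members tested were lower in Beach, against 5.75% of all genes tested. In Inland 58 of 58 were called lower, against 4.1% of the genes. The 12 members not tested in Beach and the 6 not tested in Inland did not exceed 5 CPM in at least 3 libraries of that genotype. The rule used both contrasts, and a low gene could enter the test only through its control libraries, so these counts describe the members and are no support for them.

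Fewer members were called for the difference between the genotypes' responses. In a fit of all 12 libraries, 28 of the 61 members tested were called for a larger fall in Beach when edgeR tested the interaction of genotype and salt, where 2.42% of all genes were called in that direction. The rule used this contrast as well. The other 33 tested members did not pass although their means met the limit, and 3 members were too low to be tested. The fitted difference was negative, that is larger in Beach, for each of the 61, and ran from -4.18 to -0.37 on the log2 scale with a median of -1.33, beside -0.01 over all genes. The called members had ratios of ratios of 1.77 to 7.89 with a median of 2.98, and the members not called 1.76 to 3.51 with a median of 1.98. Of the 18 members with a ratio of ratios of at least 3, 14 were called, 2 were not called and 2 were not tested. Of the 22 under 2, 3 were called. The scaling bears on this contrast, since the median log2 ratio of ratios over the 16909 genes was 0.12 with library totals, which the rule uses, and 0.01 with TMM, which the fit uses. For the members the medians were 1.18 and 1.08.

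Phvul.003G041200 had the largest ratio of ratios, 6.91, among the 54 members with at least 10 counts in every library and no overlap of control and treatment. Its Beach control libraries held 111, 56.3 and 44.8 CPM and its Beach treatment libraries 2.83, 1.68 and 3.81. In Inland it stood at 31.8, 42.1 and 33.6 CPM under control and 14.4, 10.6 and 8.18 under treatment. It started higher in Beach than in Inland in each control library and ended lower in each treatment library, so that the order of the genotypes was turned. Beach control replicate 1 was the highest library, and without it the log2 ratio of ratios was 2.31 rather than 2.79.

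Phvul.009G180400 had the next largest ratio of ratios, 4.52. Its control libraries held 98.6, 39.4 and 60.7 CPM in Beach and 44.3, 83.3 and 77.3 in Inland. Under salt it was at 4.76, 3.15 and 3.63 CPM in Beach and at 11.8, 26.4 and 21.1 in Inland. The control ranges overlapped almost fully and the treatment ranges did not touch. Here too the highest Beach control library was replicate 1, and the log2 ratio of ratios was 2.18 with it and 1.78 without it.

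The deepest falls in Beach among the same 54 members were those of Phvul.003G080700 and Phvul.006G159600. The first went from 133, 113 and 88.2 CPM to 1.499, 2.88 and 3.60 in Beach, a ratio of 35.5, and from 82.5, 73.2 and 75.2 to 7.47, 8.49 and 5.15 in Inland, a ratio of 10.3. The second went from 63.1, 77.2 and 105 CPM to 1.30, 2.98 and 1.68 in Beach, a ratio of 33.0, and from 38.2, 42.2 and 47.2 to 2.92, 3.79 and 3.65 in Inland, a ratio of 10.9. Both were also among the members with the deepest Inland falls. For the second the lowest Inland treatment library lay just under the highest Beach treatment library.

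The 2 members with the highest mean level are given next. Phvul.006G149200 had the highest and held 591, 547 and 553 CPM in Beach control and 117, 120 and 154 in Beach treatment, a ratio of 4.30. In Inland it held 270, 285 and 320 CPM under control and 134, 137 and 129 under treatment, a ratio of 2.18. The genotypes differed in their controls and met at the same level under salt, the reverse of the usual case among the members. Phvul.009G121000 came next, with 145, 470 and 338 CPM in Beach control and 42.6, 32.8 and 44.2 in Beach treatment, a ratio of 7.88. Its Inland libraries held 436, 512 and 607 CPM under control and 201, 152 and 129 under treatment, a ratio of 3.22. The spread among its Beach controls was wide, with replicate 1 the lowest, and the log2 ratio of ratios of 1.29 became 1.64 without that library and 0.90 without replicate 2.

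**Figure D3:**
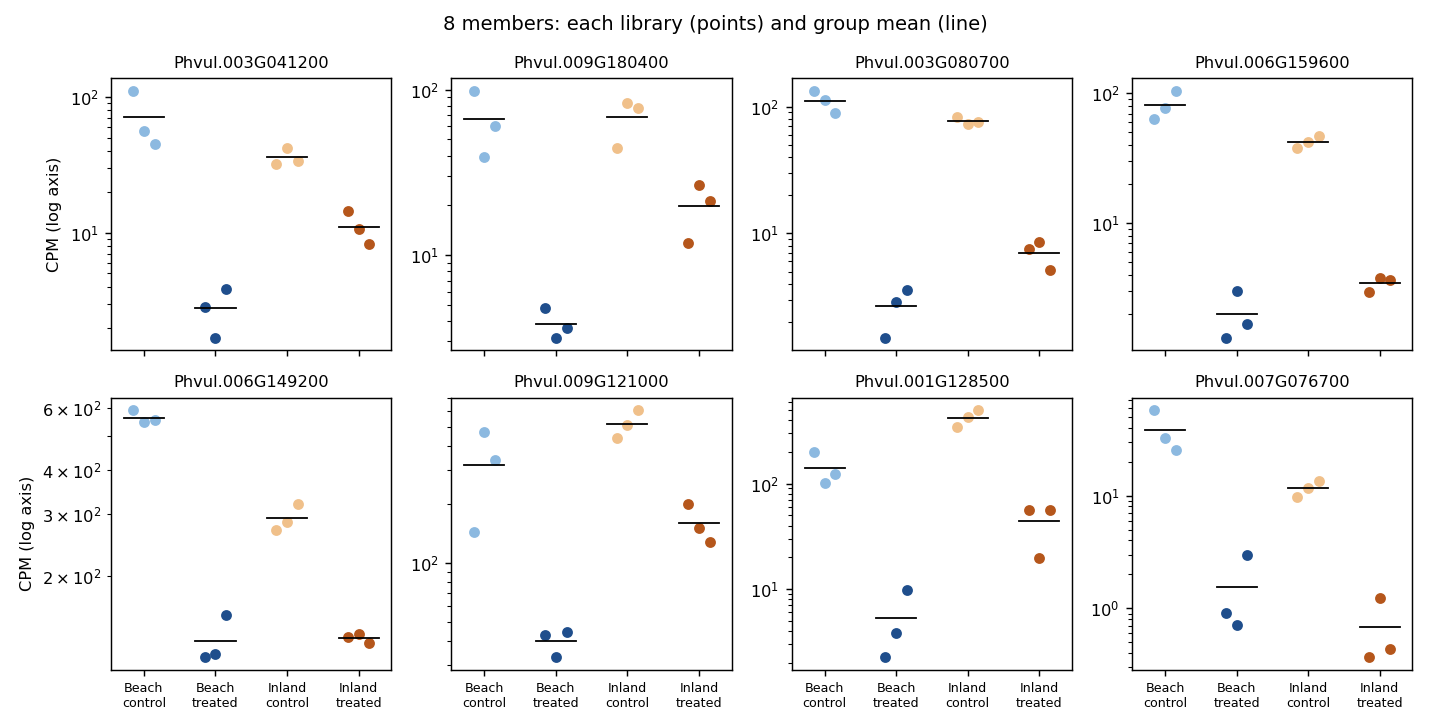
CPM of 8 members in each library (points, log axis, with a separate scale for each gene) and the mean of each group (lines), for Beach (blue) and Inland (orange) under control (light) and treatment (dark). Phvul.003G041200 and Phvul.009G180400 end lower in Beach than in Inland, and Phvul.006G149200 ends at the same level. Phvul.007G076700 has a higher treated mean in Beach, with treatment libraries that overlap between the genotypes.

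A larger ratio in Beach can come from a higher control level or from a lower treated level. The members' control levels were centred near equality, with a median log2 ratio of Beach to Inland of -0.08. Beach was higher in 27 members and lower in 37, and 37 members had controls within 1.5-fold. Under treatment the median log2 ratio of Beach to Inland was -1.31. The level was lower in Beach in 62 members, by at least 2-fold in 45, and in 54 members the genotypes were further apart under treatment than under control. All 3 Beach treatment libraries lay below all 3 Inland treatment libraries in 53 members, and in 33.1% of the 16909 genes. Among the 314 other genes lower in both genotypes, the median log2 ratio of Beach to Inland was -0.34 under control and -0.41 under treatment. The rule holds all 4 means, so these values show where the difference lay and are not tested.

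**Figure D4:**
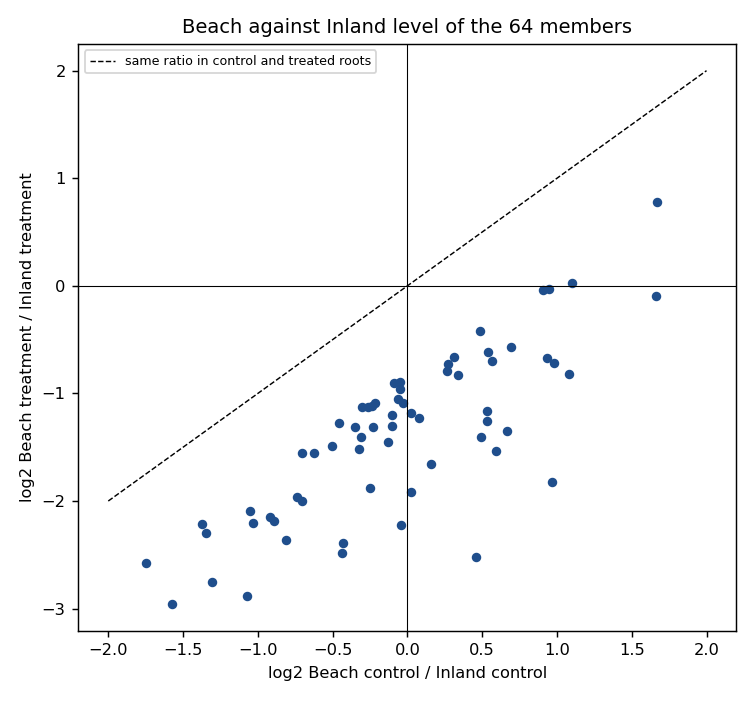
Each point is a member, placed by the log2 ratio of Beach to Inland under control (x axis) and under treatment (y axis), from mean CPM + 0.5. The points centre near -0.08 on the x axis and -1.31 on the y axis, and all lie below the dashed line on which both ratios are the same.

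For some members the control levels did differ. With edgeR's quasi-likelihood test in the fit of all 12 libraries, 10 of the 61 members tested were called between Beach control and Inland control, 3 higher and 7 lower in Beach. Of all genes, 6.35% were called, 2.58% higher and 3.77% lower in Beach. Without Inland control replicate 2 the number of members called was 6, and the share of all genes in that fit is not given here. By the means, 4 members had controls over 2-fold higher in Beach and 8 over 2-fold lower. Phvul.001G128500 was of the latter kind, with 199, 101 and 123 CPM in Beach control against 343, 425 and 496 in Inland control. Salt took it to 2.25, 3.80 and 9.76 CPM in Beach and 56.5, 19.8 and 56.7 in Inland, so that Beach stood below Inland in every library of both conditions. With a library left out, its log2 ratio of ratios of 1.38 ran from 1.05, without Beach treatment replicate 1, to 2.09, without Beach treatment replicate 3. It was not called for the interaction.

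Phvul.007G076700 was of the former kind. It held 56.9, 32.5 and 25.1 CPM in Beach control and 9.69, 11.7 and 13.6 in Inland control. Under salt it held 0.912, 0.719 and 2.97 CPM in Beach and 0.368, 1.24 and 0.436 in Inland. It was 1 of the 2 members whose mean treated level was higher in Beach. Its membership depended on the offset and on single libraries. The log2 ratio of ratios of 0.88 was 0.64 with an offset of 0.1 and 1.04 with an offset of 1. With a library left out it ran from 0.48, without Beach control replicate 1, to 1.51, without Beach treatment replicate 3, and it was 0.49 without Inland treatment replicate 2. The fitted difference of the responses, -0.37, was the smallest of the 61 tested.

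The members covered a wide range of abundance. The mean of the 4 group levels ran from 2.48 to 280 with a median of 21.9, beside a median of 27.9 over the 16909 genes. It was under 10 in 20 members and at least 100 in 8. Beach treatment levels came close to nothing in the lowest genes. In 2 members a library had no count, in each case 1 Beach treatment library, which allows up to 3 counts by chance. One of these members held 4.47, 6.45 and 6.14 CPM in Beach control and 0.0977, 0 and 0.120 in Beach treatment. The other held 2.02, 8.48 and 4.92 CPM in Beach control and 0.0652, 0.0342 and 0 in Beach treatment. Ratios at these levels are held down by the offset of 0.5.

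The rule used group means and not the spread of libraries around them. Extreme ratios of means of 3 libraries arise more readily in variable genes, so this spread is not independent of the choice. Treated levels of the members were also low, with medians (mean CPM + 0.5) of 2.96 in Beach and 7.88 in Inland. Replicates of the members differed more than those of most genes. The median SD over members of log2 (CPM + 0.5) was 0.400 and 0.290 for Beach controls and treated libraries and 0.231 and 0.308 for those of Inland, beside 0.164, 0.0960, 0.106 and 0.0938 over the 16909 genes. The other 314 genes lower in both genotypes lay between, with 0.336, 0.198 and 0.218 in the first, second and last of these groups, but at 0.235 in Inland control, where the members were no wider. In Beach control 19 members (29.7%) had replicates over 2-fold apart, beside 3.97% of the genes.

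The members moved together most clearly in Beach treatment. In Beach treatment replicate 3, 49 of the 64 were above their own group mean, with a median deviation of 0.17 on the log2 scale, while the median over the 16909 genes was 0.01. In Beach treatment replicate 2, 45 were below it, with a median of -0.15 beside -0.02. Replicate 3 was the highest Beach treatment library for 60.9% of the members and for 35.2% of the genes. It was also the highest for 52.9% of the 314 other genes lower in both genotypes, so the shift was shared with them. In the 9 libraries of the other groups the median deviation of the members lay between -0.04 and 0.07. Beach control replicate 1 was the highest of its group for 48.4% of the members and 47.2% of the 16909 genes. It was the lowest for 39.1% of the members and 38.3% of the genes.

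**Figure D5:**
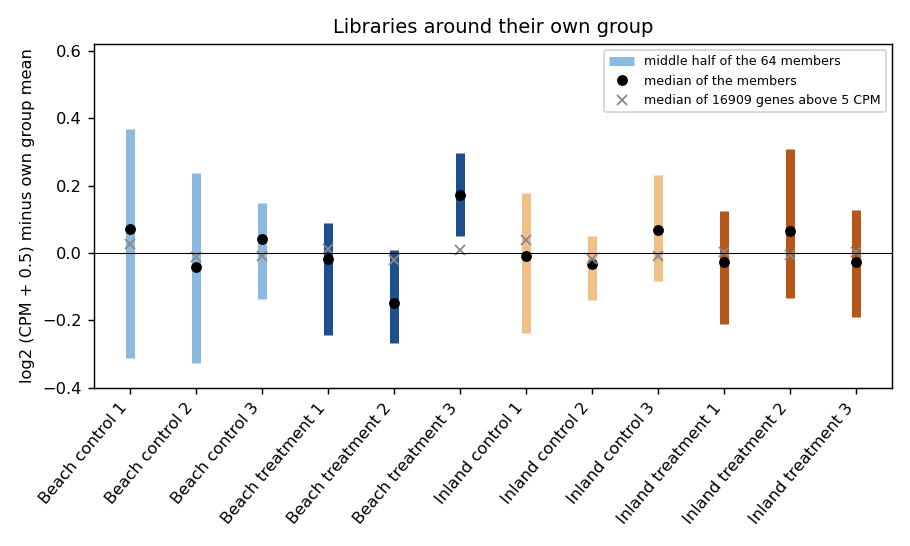
For each library, the deviation of log2 (CPM + 0.5) from the mean of its own group: the median over the 64 members (black points), the middle part of the members from the first to the third quartile (bars) and the median over the 16909 genes above 5 CPM (grey crosses). Beach treatment replicate 3 sits at 0.17 and replicate 2 at -0.15 for the members, while the crosses stay near 0.

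By the chromosome number in the identifier, the members were spread over all 11 chromosomes, with 9 on chromosome 2, 8 each on chromosomes 3 and 8, 7 each on 5 and 7, 6 each on 9 and 10, 5 each on 1 and 6, 2 on 11 and 1 on 4. As a share of the genes above 5 CPM in at least 3 libraries this was 0.106% on chromosome 4 to 0.629% on chromosome 5. Only 1 pair of members stood next to each other in the gene order, on chromosome 8. With salt one gene of the pair went from 4.26 ± 1.42 to 0.465 ± 0.204 CPM in Beach and from 11.8 ± 2.23 to 3.98 ± 0.441 in Inland (SD, n = 3). The other went from 13.1 ± 5.85 to 1.28 ± 0.165 CPM in Beach and from 33.2 ± 6.51 to 11.5 ± 0.544 in Inland. Both were lower in Beach than in Inland in every library of each condition. Their group means, though not every library, kept a ratio of about 3 to each other.

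A second pair, 3 places apart on chromosome 2, was closer still in its levels. One of its genes went from 41.2 ± 13.8 to 2.43 ± 0.708 CPM in Beach and from 39.1 ± 3.36 to 6.34 ± 1.53 in Inland. The other went from 46.2 ± 10.8 to 3.18 ± 0.726 CPM in Beach and from 47.3 ± 2.56 to 7.33 ± 1.11 in Inland (SD, n = 3). Their controls were alike in both genotypes, unlike those of the pair on chromosome 8. Whether neighbours in a pair are similar in sequence and could share reads was not tested.

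The genes around the members mostly did not follow them. The nearest genes above 5 CPM on either side, 126 genes that were not members, had a median log2 ratio of control to treatment of 0.116 in Beach and -0.021 in Inland, beside 0.0465 and -0.0755 over the 16909 genes. Of these neighbours, 14 (11.1%) were at least 2-fold lower in Beach and 9 (7.14%) in Inland, beside 6.04% and 3.5% of the genes, and 6 (4.76%) were lower in both, beside 2.13%.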

How the data were processed

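RNA-seq of whole roots was analysed in 12 libraries, grouped by their labels. The authors trimmed reads with Trimmomatic 0.36, aligned them to the common bean genome Pvulgaris_218_v1.0 with STAR and counted uniquely mapped reads over exons with featureCounts, naming no strand option. Other versions are not given in the sources used here. The values deposited by the authors are counts per gene and library, without normalization. Reads that differ from the common bean sequence may fail to align, which limits comparisons of level between genes. The ratios of control to treatment are taken within a gene and a genotype. Whether alignment of a gene differed between Beach and Inland was not tested, which limits comparisons of their levels.

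The members and lists were chosen with earlier results of these data known. Testing was limited to genes that exceeded 5 CPM in 3 libraries or more and used edgeR 4.0.16 (quasi-likelihood, TMM, Benjamini-Hochberg) in R 4.3.3, and DESeq2 1.42.0 was an alternative. In simulated data with 200 genes changed, 99.5% were recovered for Beach (16154 genes), 99.5% for Inland (16130) and 98.5% for the interaction (16909). Recovery of genes with the levels, replicate spread and interaction sizes of the members was not tested separately. These percentages therefore do not apply to the members left uncalled for the interaction. Genes named were those with at least 10 counts in every library and no overlap of control and treatment, with the largest ratio of ratios, the largest Beach ratio or the highest level. At most 2 identifiers are printed for each comparison. The members whose controls differ were picked from that named set after their values were seen. Family lists and tissue markers based on product names, and promoter and protein sequences, were not used here, since no annotation was at hand. No library repeated another: chi-square values between replicates were 11.6 to 59.4 times their degrees of freedom. Separate plants made up each replicate. Limits for a count of 0 cover counting error only.

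Same-numbered libraries of different groups had correlations of their deviations from -0.162 to 0.118 (18 pairs, 3 above 0.1), and the numbers were not used as pairs.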

Additional observations from a re-analysis of the deposited data

Results flagged for a closer look

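When edgeR tested the interaction of genotype and salt, 28 of the 61 members tested were called for a larger fall in Beach. Of all genes tested, 2.42% were called in that direction. Of the 8 members named above, 4 were called and 4 were not. The members were chosen for this difference, so the test does not stand as independent evidence, and 400 mM NaCl was compared with 200 mM. No formal test for single outlying values was added in groups of 3 libraries. Libraries were compared within their groups and left out in turn.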

How the results depend on the processing

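The number of members, 64, was 49 with an offset of 1 and 79 with 0.1, 63 with TMM scaling, of which 52 were among the 64, and 62 with DESeq2 size factors, of which 51 were. A limit of 2 on the ratio of ratios left 42 and a limit of 1.5 gave 96. Leaving out each library in turn gave 57 to 76 members and kept at least 52 of the 64. Without Beach control replicate 1, the library that stood furthest apart, there were 74 members, 57 of them among the 64. Then 32 of the 64 were called for the interaction. The median log2 ratio in Beach, 2.90, was 3.23 with an offset of 0.1 and 2.63 with an offset of 1, and in Inland, 1.52, it was 1.64 with 0.1. With a library left out the medians were 2.84 to 2.99 in Beach and 1.497 to 1.56 in Inland, and 1.12 to 1.28 for the log2 ratio of ratios. The 28 members called for the interaction became 38 with DESeq2's Wald test, 36 when TMM was replaced by library totals, and 19 to 32 with a library left out. The median log2 ratio of ratios over the 16909 genes also differed with the scaling, 0.12 with library totals and 0.01 with TMM. The 10 members called between the controls became 16 without a minimum on the fold change and 6 to 11 with a library left out. Calls within a genotype stayed at 52 to 64 in Beach and 51 to 63 in Inland. With a replicate block, 52 members were called in Beach, 57 in Inland, 24 for the interaction and 11 between controls. The labels do not say what the replicate numbers stand for, and low correlations do not show that same-numbered libraries shared nothing. Low Beach treatment counts limit the precision of the smallest members. The counts of members called under alternative settings are given without the share of all genes called there, and describe the members only.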
